A study of Mus musculus with 9 samples.

Results

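Chemokines and their receptors were read in RNA sequencing of mouse epicardium-derived CDCs. CDCs (cardiosphere-derived cells) are cells that grow out of pieces of heart tissue, form floating spheres and are then expanded as a monolayer. The genes were chosen by name and biotype: protein-coding genes with a symbol of the Ccl, Cxcl or Ccr, Cxcr or Ackr kind, and Cx3cl1. This gave 63 of the 54532 genes in the table, namely 30 CC ligands, 12 CXC ligands, 1 CX3C ligand, 16 receptors and 4 atypical receptors. They carry 57 distinct symbols, because Ccl19, Ccl21a, Ccl21b, Ccl21c and Ccl27a have more than 1 entry each, some of them on unplaced scaffolds.

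The 9 libraries fall into 3 groups of 3, all from C57BL/6 mice. pECDCs are primary cells grown from the epicardium of the ventricles of adult mice. iECDCs were made by transducing such cells with a lentivirus in which the CMV promoter drives hTERT, the catalytic subunit of human telomerase, followed by puromycin selection, and they were sequenced at passage 30. The remaining group is labeled as the same immortalized cells at passage 30 given SB431542, which blocks the type I receptor of TGF-β (ALK5), for 3 days. The study's methods list RNA inputs without tying them to these libraries, and the only SB431542-treated cells among them are an epithelial clone derived from pECDCs. If the treated libraries were that clone, treatment, clone and immortalization could not be told apart. The passage of the pECDCs also differs between labels and methods. The labels do not say whether the 3 libraries of a group came from separate animals or cultures, and the methods speak of biological replicates but give a number per condition other than 3. A figure legend of the study on the sequencing of pECDCs and iECDCs gives n = 3. The p-values measure only the spread between these libraries.

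Chemokines are small secreted proteins, named by the spacing of their first cysteines, that guide migrating cells along gradients. They act on G protein-coupled receptors of the Ccr, Cxcr and Cx3cr1 families, while atypical receptors (Ackr) bind ligands without G protein signaling and shape the gradient. In the injured heart, Ccl2 and Ccl7 are known for calling in monocytes through Ccr2, CXC ligands of the Cxcl1 and Cxcl5 type for calling in neutrophils through Cxcr2, and Cxcl12 for holding and recruiting Cxcr4-bearing progenitor cells.

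Total counts ranged from 16568306 to 23951392 per library. iECDC replicate 3 and SB431542-treated replicate 2 stood apart from their groups. The chi-square of their counts per degree of freedom against the other libraries of their group was 30.8 and 24.9 for the former and 71.5 and 70.3 for the latter, against 4.61 and 3.79 for the remaining pairs of these groups and 2.70 to 4.23 among pECDCs. By this value treated replicate 2 was nearer to iECDC replicate 3 (64.5) than to the other treated libraries. It was farther from iECDC replicates 1 and 2 (82.2 and 75.5). Its Pearson correlation of log2(FPKM + 1) was 0.974 with iECDC replicate 3 and 0.969 with treated replicates 1 and 3. Expression of genes that TGF-β signaling induces was measured as a check of the treatment. Smad7, the feedback inhibitor of the pathway, had an FPKM (reads scaled by gene length and library depth) of 24.8 to 26.1 in pECDCs and 33.5 to 35.3 in iECDCs, and of 8.16, 14.0 and 7.49 in the treated libraries. Replicate 2 was thus the highest of the treated libraries and still below every untreated library. Ctgf and Skil were also called lower in treated libraries than in iECDCs, whereas Tgfbi, a matrix protein, was called higher. Replicate 2 lay between the iECDC mean and the mean of the other treated libraries for all 4 genes of this check, and for 5 of the 11 chemokine genes described in full, namely Ccl17, Ccl5, Cx3cl1, Cxcl12 and Cxcl5.

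The labeled cell type was compared with markers. Tbx18, a transcription factor of the epicardial lineage, had an FPKM of 19.0 to 20.3 in pECDCs, 18.8 to 25.0 in iECDCs and 22.9 to 41.8 in treated libraries. Wt1, Msln, Upk3b and Tcf21, read as markers of the same kind, were low. They did not exceed 0.092, 0.182, 0.142 and 0.851 in pECDCs, and 0.396, 0.405, 1.36 and 1.58 in any library. Thy1, a mesenchymal surface protein also called CD90, was between 111 and 148 in every library, and of the keratins of epithelial mesothelium, Krt19 was between 18.2 and 37.9 in every library while Krt8 and Krt18 did not exceed 0.140. Many chemokines and nearly all chemokine receptors are characteristic of leukocytes, so leukocyte markers were read as well. Of 13 such markers, Adgre1, Aif1, C1qa, C1qb, Cd3e and Tyrobp had 0 counts in all 9 libraries, and Ptprc, the pan-leukocyte phosphatase CD45, had at most 4. The summed FPKM of the 13 markers was 10.5 to 11.5 in pECDCs, 10.6 to 14.8 in iECDCs and 15.0 to 16.9 in treated libraries, and came almost wholly from Cd14, Csf1r and Lyz2. Of 6 endothelial markers, the summed FPKM did not exceed 0.165 in any library. In such bulk samples, fewer cells of a type and less RNA per cell cannot be told apart.

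Most chemokine genes were silent in these cells. Of the 63 genes, 24 had 0 counts in all libraries, 13 had 1 to 10 counts over all 9 together and 26 had more. The floor was set at 3 counts per library, or 0.125 to 0.181 CPM (counts per 1000000 counts), and a gene was at the floor in a group if none of its libraries exceeded this. This held for 39 genes in pECDCs, 46 in iECDCs and 39 in treated cells, and 36 genes (24 ligands and 12 receptors) never exceeded 3 counts in any library. Absence is therefore limited to this depth, and the floor covers counting error only. Ccl19, Ccl21a, Ccl21b and Ccl21c had 0 counts in all their entries, each counted here as a gene. How reads that match more than 1 entry of a symbol were counted is not given in the sources used here. In each comparison 15 of the 63 genes passed the filter on low counts and were tested. A gene passes that filter if it is high in either group, so the tested genes are not a sample of all chemokine genes.

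The expressed part of the family was a short list of ligands. A mean FPKM of at least 1 in at least 1 group was reached by 10 ligands and by 0 receptors. FPKM allows levels of different genes to be set side by side. By mean FPKM the order in pECDCs was Cxcl12 (137 ± 3.01, SD, n = 3), Cx3cl1 (41.1 ± 1.29), Ccl17 (37.0 ± 1.73), Ccl2 (36.5 ± 0.979), Ccl7 (23.9 ± 1.47), Cxcl5 (2.57 ± 0.0719) and Cxcl16 (1.75 ± 0.251). Ccl17 and Ccl2 overlapped between libraries and were not separable, while each of the other neighbors in this order was separated in every library. In iECDCs Ccl17 (106 ± 5.12) stood beside Cxcl12 (117 ± 28.0), with overlapping libraries, ahead of Cx3cl1 (50.8 ± 7.32). In the treated libraries Cxcl12 (265 ± 91.7) was again first, followed by Cxcl5 (50.2 ± 22.5), Ccl2 (46.9 ± 25.4) and Ccl7 (31.2 ± 18.5), which overlapped one another, and Ccl17 was down to 4.10 ± 4.46.

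**Figure D1:**
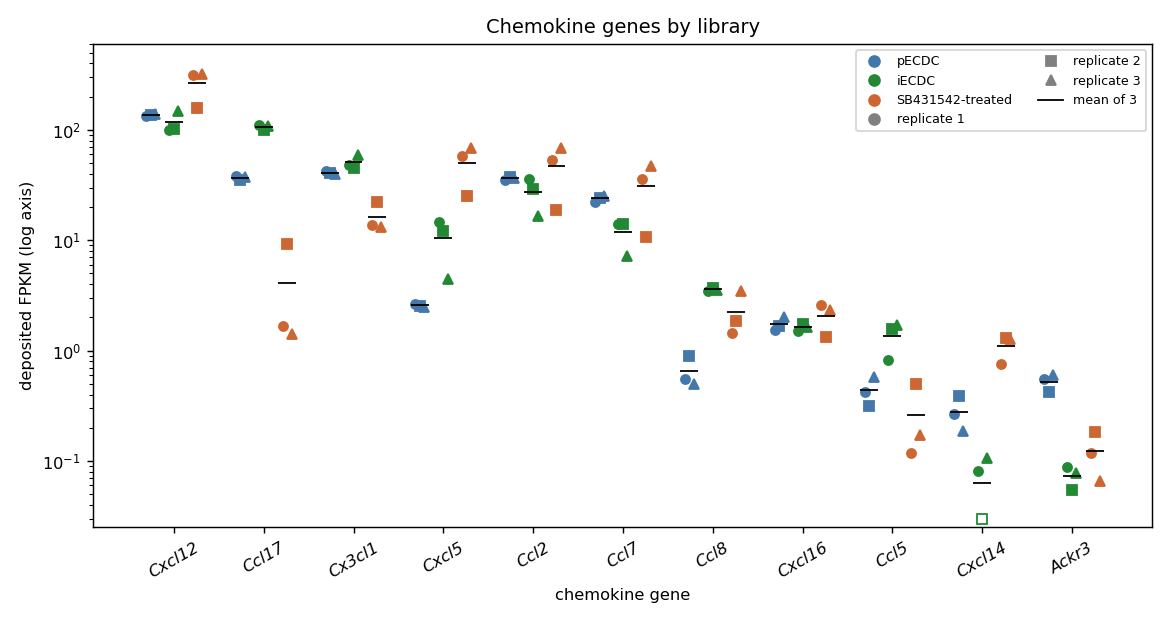
Deposited FPKM of the 11 chemokine genes described in full (log axis), with 1 point per library, color for the group, symbol for the replicate number and a bar at the mean of 3 libraries. The open square at the bottom stands for 0 (Cxcl14, iECDC replicate 2). Ccl17 lies near 100 in iECDCs and below 10 in all treated libraries, and treated replicate 2 lies apart from replicates 1 and 3 for Cxcl12, Ccl2 and Ccl7.

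Summed over all 43 ligands, FPKM was 281 to 288 in pECDCs, 312 to 355 in iECDCs and 488, 252 and 529 in treated replicates 1, 2 and 3. Treated replicate 2 was thus the lowest of the 9 libraries and the other treated libraries were the highest. Cxcl12 made up 47.9% to 48.7% of this sum in pECDCs, 30.3% to 42.2% in iECDCs and 60.4% to 64.7% in treated libraries. These ranges did not overlap between groups, and the share in treated replicate 2 (63.1%) lay inside that of its group although its sum did not. The 20 receptors and atypical receptors together summed to 0.496 to 1.61 per library.

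**Figure D2:**
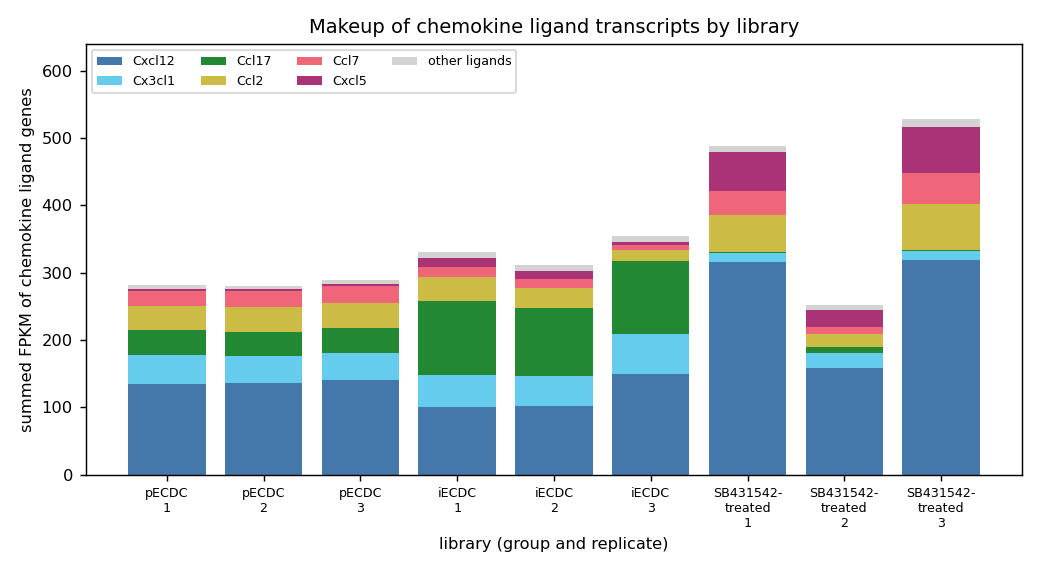
Summed FPKM of the 43 chemokine ligand genes in each library, stacked by ligand, with the 6 most abundant ligands in color and the remaining ligands in grey. The Ccl17 band is wider in iECDCs than in the other groups, and Cxcl12, Cxcl5, Ccl2 and Ccl7 make the tallest bars in treated replicates 1 and 3.

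Each comparison was made with edgeR's quasi-likelihood test over all tested genes, and a gene was called at an adjusted p under 0.05. The 3 comparisons share libraries in pairs (each group stands in 2 of them), so their values are set side by side and are not independent. In iECDCs against pECDCs, 4 of the 15 tested chemokine genes (26.7%) were higher and 2 (13.3%) lower, where 7.21% of all 13752 tested genes were called higher and 9.21% lower. In treated libraries against iECDCs, 3 (20%) were higher and 3 lower, where 16.0% and 14.0% of all 13559 genes were called higher and lower. In treated libraries against pECDCs, 4 (26.7%) were higher and 3 (20%) lower, where 17.9% and 17.0% of all 14015 genes were. With 15 genes, the shares in the treated comparisons were near those of all genes. The median log2 fold change of the 15 tested chemokine genes was 0.05, 0.49 and 0.37 in the 3 comparisons, and that of all tested genes was -0.0018, 0.0014 and 0.0068. Without treated replicate 2, 9 of 17 tested chemokine genes were higher and 4 lower than in iECDCs, with 25.3% and 24.8% of all genes called higher and lower, and 11 of 18 were higher and 4 lower than in pECDCs, with 31.7% and 32.3% of all genes. Without both libraries that stood apart, an alternative chosen after seeing the data, 10 of 17 were higher and 4 lower in treated cells than in iECDCs, with 32.6% and 31.9% of all genes. Without iECDC replicate 3, 5 of 17 were higher and 4 lower in iECDCs than in pECDCs, with 15.5% and 16.2% of all genes.

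**Figure D3:**
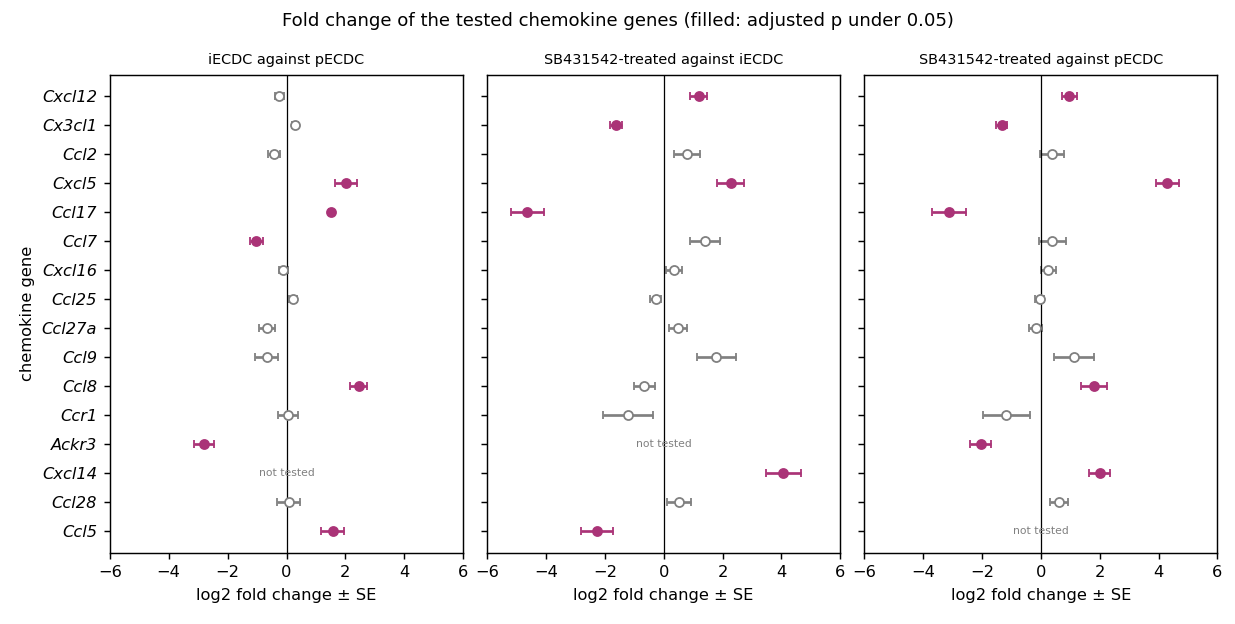
Log2 fold change with its standard error for every chemokine gene tested in at least 1 of the 3 comparisons, each from edgeR with 3 libraries per group. Filled points have an adjusted p under 0.05. Cxcl5 is to the right of 0 in every panel, and Ccl17 is at 1.51 in the first panel and at -4.63 and -3.11 in the others.

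Among CXC ligands, Cxcl12 (ENSMUSG00000061353) had the highest mean FPKM in every group. It is the ligand of Cxcr4 and of the scavenging receptor Ackr3, and its gene lies on chromosome 6 from 117168535 to 117181367 (GRCm38). Its FPKM was 135, 136 and 140.4 in pECDCs, 100.2, 102 and 149 in iECDCs, and 316, 159 and 319 in treated replicates 1, 2 and 3. Every treated library was above every untreated library, replicate 2 only slightly so, and iECDC replicate 3 lay above all pECDCs while the other iECDC libraries lay below them. Cxcl12 rose in treated libraries against iECDCs by 1.19 ± 0.29 (log2, SE, adjusted p = 0.018) and against pECDCs by 0.96 ± 0.25 (adjusted p = 0.026). With iECDC replicate 1 or 2 or treated replicate 1 or 3 left out, the first difference was 1.08, 1.09, 1.05 and 1.04 and no longer called (adjusted p = 0.058 to 0.081). Against pECDCs the call was likewise lost without pECDC replicate 1, 2 or 3 or treated replicate 1 or 3, with differences of 0.94, 0.95, 0.97, 0.81 and 0.80. Without treated replicate 2 the values were 1.45 (adjusted p = 0.00013) and 1.22 (adjusted p = 7.1e-15). Between iECDCs and pECDCs the difference was -0.24 ± 0.14 (adjusted p = 0.28), and without iECDC replicate 3 it was -0.45 and called (adjusted p = 1.6e-07).

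Cxcl5 (ENSMUSG00000029371), a neutrophil attractant that acts through Cxcr2, was the only chemokine gene called higher in all 3 comparisons. The gene spans 90759360 to 90761624 of chromosome 5. FPKM values of Cxcl5 were 2.65, 2.56 and 2.51 in pECDCs, 14.5, 12.2 and 4.47 in iECDCs, and 57.5, 25.1 and 68.2 in treated libraries. The 3 groups did not overlap, and the lowest library of the iECDC and of the treated group was in each case the one that stood apart. The difference was 2.02 ± 0.36 in iECDCs against pECDCs (adjusted p = 0.0064), 2.27 ± 0.47 in treated libraries against iECDCs (adjusted p = 0.011) and 4.30 ± 0.39 against pECDCs (adjusted p = 0.00060). Without iECDC replicate 3 the first of these was 2.37, and without both libraries apart the second was 2.23.

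Cxcl5 heads a run of 5 CXC ligand genes on chromosome 5, in the order Cxcl5, Cxcl3, Cxcl15, Cxcl1 and Cxcl2, which ends at 90905938. The levels in this run were very unequal. Cxcl2 had 0 counts throughout and Cxcl3 at most 3 in any library. Cxcl15 and Cxcl1, named here after their values were seen, were too low in most libraries to be tested. Cxcl15, an attractant of neutrophils best known from the lung, had 49, 5 and 41 counts in the treated libraries, 0, 1 and 0 in pECDCs and 0 in every iECDC library. Against 3 counts in each iECDC library the mean of the treated libraries was at least 10.2-fold higher. This bound does not hold for treated replicate 2 alone, whose 5 counts lay just above the floor. In DESeq2 and in edgeR with no filter on low counts, Cxcl15 was called higher than in iECDCs (adjusted p = 6.0e-06 and 1.25e-07). Cxcl1, a Cxcr2 ligand like Cxcl5, had 10, 7 and 6 counts in pECDCs, 0, 1 and 0 in iECDCs, and 20, 1 and 21 in treated libraries. Treated replicate 2 was at the iECDC level and the other treated libraries were above all pECDCs. Per total count, the pECDC libraries together held 18.6 times as much Cxcl1 as the iECDC libraries (95% exact interval 3.01 to 764, counting error only), and the treated libraries 40.8 times as much (6.93 to 1648). Without a filter on low counts both differences of Cxcl1 were called (adjusted p = 0.0064 and 0.00027).

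Sequence is shown for Cxcl1, Cxcl2 and Cxcl3, neighbors of this run whose promoters hold the same letters. In the 250 bases before the RefSeq start (GRCm38.p6), Cxcl1, Cxcl2 and Cxcl3 each hold GGAATTTCC, a match to the NF-κB-like letters GGANNTTCC, with its first base at -70, -96 and -72 from the start. The capitals below mark it, with 25 bases on each side. The window of Cxcl15 holds no match, and Cxcl5 has no window in the promoter table.
Cxcl1 (chr5:90891150-90891208, plus strand): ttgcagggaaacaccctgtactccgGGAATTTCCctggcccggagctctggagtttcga
Cxcl2 (chr5:90903778-90903836, plus strand): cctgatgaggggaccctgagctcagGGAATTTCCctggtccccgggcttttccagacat
Cxcl3 (chr5:90786004-90786062, plus strand): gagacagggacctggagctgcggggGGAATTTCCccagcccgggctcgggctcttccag
Promoter windows were matched by symbol for 42 of the 57 symbols, 49 windows in all. On either strand the letters GGANNTTCC stood in 7 of these 49 (14.3%) and in 3.59% of all 32851 windows of the same length. TGANTCA (AP-1) stood in 6 (12.2%, against 6.75%), GAAANNGAA (interferon response like) in 8 (16.3%, against 7.13%) and CAGAC (SMAD like) in 21 (42.9%, against 42.2%). A match is a run of letters, not a bound site, and some genes have several windows that overlap.

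Cxcl14 (ENSMUSG00000021508), a CXC ligand of epithelia and stroma, was scarce and highest in treated libraries. Its counts were 12, 14 and 8 in pECDCs, 3, 0 and 3 in iECDCs, and 24, 50 and 42 in treated libraries. The groups did not overlap, and treated replicate 2 was here the highest rather than the nearest to iECDCs. The treated libraries together held 18.8 times as much per total count as iECDCs (95% exact interval 8.36 to 52.2, counting error only). In edgeR the difference was called (log2 4.07 ± 0.58, adjusted p = 0.0028), and its size depends on the prior count since iECDCs were at the floor. Against pECDCs it was 2.0 ± 0.35 (adjusted p = 0.0057). Between iECDCs and pECDCs Cxcl14 did not pass the filter. The difference was -2.15 and not called in DESeq2 (adjusted p = 0.093), and -2.10 and called with no filter (adjusted p = 0.020). Cxcl16, the membrane-bound ligand of Cxcr6, had an FPKM of 1.54, 1.68 and 2.03 in pECDCs, 1.51, 1.75 and 1.64 in iECDCs, and 2.57, 1.34 and 2.33 in treated libraries. The groups overlapped and no comparison was called (adjusted p = 0.33 to 0.64). Without treated replicate 2, Cxcl16 was 0.59 higher than in iECDCs (adjusted p = 0.017) and 0.49 higher than in pECDCs (adjusted p = 0.0061). Cxcl10, the interferon-induced ligand of Cxcr3, reached at most 16 counts in a library and was called higher in iECDCs than in pECDCs with no filter on low counts (1.77, adjusted p = 0.014), and Cxcl9, another Cxcr3 ligand, had 0.

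Among the tested CC ligands, Ccl17 (ENSMUSG00000031780) had the largest fold change of each treated comparison. It is a ligand of Ccr4 best known from dendritic cells, on chromosome 8 from 94810453 to 94812036. Its FPKM was 38.2, 35.0 and 37.7 in pECDCs, 109.8, 100.2 and 108 in iECDCs, and 1.66, 9.25 and 1.40 in treated libraries. No groups overlapped, and treated replicate 2 was the highest of the treated libraries. Ccl17 rose in iECDCs against pECDCs by 1.51 ± 0.07 (adjusted p = 4.1e-06). In treated libraries it fell by 4.63 ± 0.55 on the log2 scale against iECDCs (adjusted p = 0.0015) and fell by 3.11 ± 0.58 against pECDCs (adjusted p = 0.0071). Without treated replicate 2 these falls were -6.09 and -4.58. Its receptor gene Ccr4 and the other Ccr4 ligand, Ccl22, had 0 counts in all libraries.

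Cx3cl1 (ENSMUSG00000031778), the membrane-anchored ligand fractalkine, is the neighbor of Ccl17, from 94772009 to 94782427, and its end lies 28026 bases before the start of Ccl17. Its FPKM was 42.5, 40.5 and 40.2 in pECDCs, 47.9, 45.4 and 59.2 in iECDCs, and 13.8, 22.0 and 13.1 in treated libraries. All treated libraries were below all others, again with replicate 2 nearest to the untreated ones. Cx3cl1 fell by 1.63 ± 0.21 against iECDCs (log2, adjusted p = 0.0019) and fell by 1.32 ± 0.19 against pECDCs (adjusted p = 0.0028), and without treated replicate 2 the values were -1.91 and -1.60. In iECDCs it was 0.29 ± 0.10 above pECDCs with no overlap, which missed the threshold in edgeR (adjusted p = 0.068) and passed it in DESeq2 (adjusted p = 0.037), with no filter on low counts (adjusted p = 0.0096), without iECDC replicate 2 (0.37, adjusted p = 0.043) and without iECDC replicate 3 (0.18, adjusted p = 0.0069). Its receptor gene Cx3cr1 did not exceed an FPKM of 0.110 in any library.

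The sequence before the start is shown for the genes called in treated libraries against iECDCs that have a window in the promoter table: Ccl17 and Cx3cl1, which fell, and Cxcl12 and Cxcl14, which rose. Capitals mark matches to CAGAC or its reverse complement GTCTG in Ccl17 and to GAAANNGAA in Cxcl14. For Cx3cl1 only the 79 bases before the gene's start in the deposited table are printed.
Ccl17 (chr8:94810203-94810452, plus strand): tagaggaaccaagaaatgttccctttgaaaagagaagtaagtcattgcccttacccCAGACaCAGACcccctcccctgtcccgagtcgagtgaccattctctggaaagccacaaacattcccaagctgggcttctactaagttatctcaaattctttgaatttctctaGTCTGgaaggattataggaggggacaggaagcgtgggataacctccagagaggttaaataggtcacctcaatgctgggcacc
Cx3cl1 (chr8:94771930-94772008, plus strand): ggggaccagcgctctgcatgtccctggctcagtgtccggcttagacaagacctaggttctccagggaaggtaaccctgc
Cxcl12 (chr6:117168285-117168534, plus strand): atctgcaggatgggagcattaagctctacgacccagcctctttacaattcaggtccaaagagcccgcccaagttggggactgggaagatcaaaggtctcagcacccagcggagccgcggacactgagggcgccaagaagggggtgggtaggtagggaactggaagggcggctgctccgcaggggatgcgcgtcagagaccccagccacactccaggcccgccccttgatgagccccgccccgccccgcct
Cxcl14 (chr13:56296552-56296801, minus strand): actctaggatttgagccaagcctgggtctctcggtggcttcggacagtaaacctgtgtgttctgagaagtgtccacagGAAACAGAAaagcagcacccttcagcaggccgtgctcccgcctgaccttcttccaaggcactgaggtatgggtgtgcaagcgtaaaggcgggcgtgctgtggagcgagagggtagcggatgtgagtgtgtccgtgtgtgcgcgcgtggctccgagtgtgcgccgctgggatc
Ccl17 holds CAGAC or its complement at 3 places, none of them in the windows of the other 3 genes. The GC content of the printed stretch was 47.6% for Ccl17, 60.8% for Cx3cl1, 64.4% for Cxcl12 and 59.6% for Cxcl14. These letters say nothing of binding.

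Ccl2 and Ccl7, the Ccr2 ligands that attract monocytes, lie 8259 bases apart on chromosome 11. The FPKM of Ccl2 (82035571 to 82037453) was 35.4, 37.3 and 36.8 in pECDCs, 35.8, 29.2 and 16.6 in iECDCs, and 53.8, 18.8 and 68.1 in treated libraries. That of Ccl7 (82045712 to 82047525) was 22.4, 24.0 and 25.3 in pECDCs, 14.2, 14.0 and 7.23 in iECDCs, and 36.1, 10.7 and 46.7 in treated libraries. For both genes the libraries that stood apart were the lowest of their groups, and treated replicates 1 and 3 were above all other libraries while replicate 2 lay within the range of iECDCs. Ccl7 fell in iECDCs against pECDCs by 1.02 ± 0.21 on the log2 scale (adjusted p = 0.011), with no overlap. Without pECDC replicate 3 this was -0.97 and not called (adjusted p = 0.057), with all 9 libraries in the fit it was not called either (adjusted p = 0.23), and without iECDC replicate 3 it was -0.77 (adjusted p = 1.2e-05). For Ccl2 the same comparison gave -0.43 ± 0.22 with overlapping libraries (adjusted p = 0.21), and -0.44 and a call with no filter on low counts (adjusted p = 0.0011). In treated libraries against iECDCs neither was called, with 0.79 ± 0.45 for Ccl2 (adjusted p = 0.21) and 1.41 ± 0.49 for Ccl7 (adjusted p = 0.063), nor against pECDCs, with 0.37 ± 0.40 and 0.39 ± 0.46 (adjusted p = 0.51 and 0.54). Without treated replicate 2 both were called, with 1.16 for Ccl2 (adjusted p = 0.0044) and 1.81 for Ccl7 (adjusted p = 0.00032) against iECDCs, and 0.75 and 0.80 against pECDCs (adjusted p = 8.1e-08 and 5.7e-07). With no filter on low counts both were also called against iECDCs (adjusted p = 0.011 and 7.0e-05), and with all 9 libraries in the fit Ccl7 was (adjusted p = 0.027). Their receptor gene Ccr2 had 0 counts in all libraries, and Gm17268, which overlaps Ccl2 on the opposite strand, also had 0.

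Ccl8 (ENSMUSG00000009185), which in the mouse acts on Ccr8, lies in the same run of 6 genes (Ccl2, Ccl7, Ccl11, Ccl12, Ccl8 and Ccl1) but followed another order. Its FPKM was 0.558, 0.885 and 0.503 in pECDCs, 3.49, 3.69 and 3.57 in iECDCs, and 1.45, 1.86 and 3.47 in treated libraries. pECDCs were below both other groups, and iECDC replicate 3 was level with its group. Ccl8 rose by 2.45 ± 0.29 in iECDCs (adjusted p = 0.00066) and was 1.81 ± 0.44 above pECDCs in treated libraries (adjusted p = 0.019), which was no longer called without pECDC replicate 1 (1.71, adjusted p = 0.081) or 3 (1.65, adjusted p = 0.081). The difference between treated libraries and iECDCs was -0.65 ± 0.35 (adjusted p = 0.19). Of the other genes of this run, Ccl11 reached at most 4 counts in a library and Ccl12 and Ccl1 had 0.

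**Figure D4:**
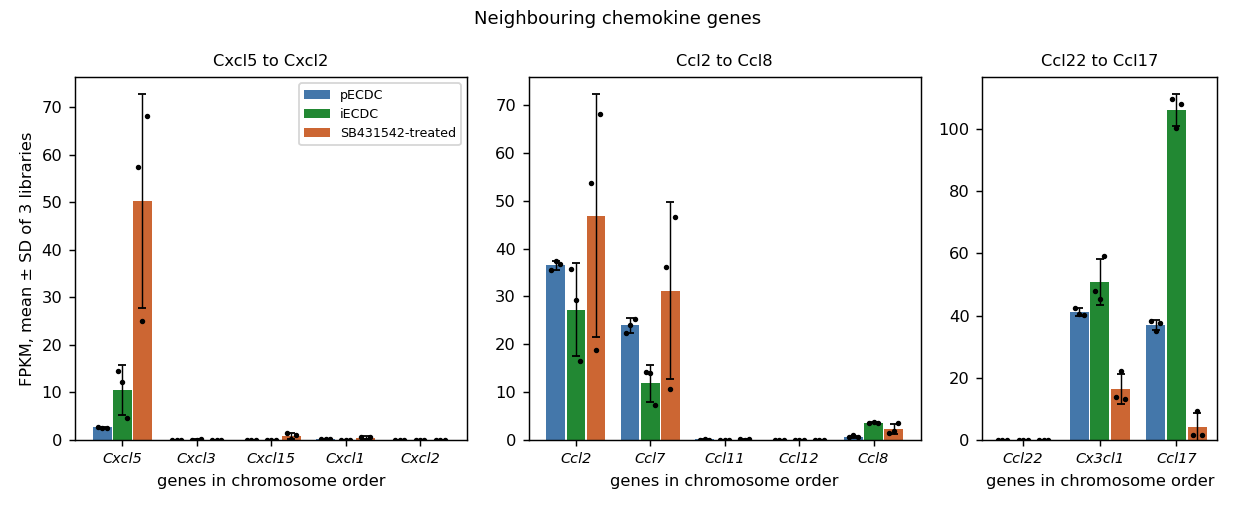
Mean FPKM with SD of 3 libraries (bars from 0) and the single libraries (dots) for neighboring chemokine genes in chromosome order: the run from Cxcl5 to Cxcl2, that from Ccl2 to Ccl8, and Ccl22, Cx3cl1 and Ccl17. Ccl2 and Ccl7 are both highest in 2 of the treated libraries, Cx3cl1 and Ccl17 are both lowest in treated libraries, and several genes inside the runs are at or near 0.

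Ccl5 (ENSMUSG00000035042), an attractant of T cells, was low in all libraries. Its counts were 10, 6 and 13 in pECDCs, 16, 25 and 25 in iECDCs, and 2, 10 and 3 in treated libraries. iECDCs were above both other groups, and treated replicate 2 overlapped pECDCs. Ccl5 was 1.57 ± 0.38 higher in iECDCs than in pECDCs (adjusted p = 0.023) and fell by 2.27 ± 0.53 in treated libraries against iECDCs (adjusted p = 0.016). The rise was not called without pECDC replicate 1 (1.54), 2 (1.40) or 3 (1.82) or iECDC replicate 2 (1.44), nor with all 9 libraries in the fit (1.58), with adjusted p = 0.053 to 0.094. The fall was not called without iECDC replicate 2 (-2.16) or 3 (-2.11) or treated replicate 1 (-1.95) or 3 (-2.05), with adjusted p = 0.052 to 0.066.

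Other CC ligands with more than 10 counts in all were Ccl25, Ccl27a, Ccl28, Ccl9 and Ccl20. Ccl25, a thymus and gut ligand of Ccr9, and Ccl27a, a skin ligand of Ccr10, overlap genes on the opposite strand with 1164 to 2612 and 687 to 1421 counts (Elavl1 and Il11ra1). The strand setting of the counting is not given in the sources used here, so reads of these pairs cannot be told apart, and no comparison of Ccl25, Ccl27a or Ccl28 was called. Ccl28, a ligand of mucosal epithelia, was called higher in treated libraries than in pECDCs without treated replicate 2 (0.80, adjusted p = 0.046) and than in iECDCs without both libraries apart (1.03, adjusted p = 0.035). Ccl9, a ligand of Ccr1 named here after its values were seen, had 24, 11 and 32 counts in pECDCs, 11, 9 and 12 in iECDCs, and 48, 9 and 60 in treated libraries. As with Ccl2 and Ccl7, treated replicates 1 and 3 were the highest and replicate 2 was with the iECDCs. Ccl9 differed by 1.79 ± 0.67 from iECDCs (adjusted p = 0.076), and without treated replicate 2 by 2.29 (adjusted p = 0.00029). With all libraries kept this difference was called in DESeq2 (1.79, adjusted p = 0.031) and with no filter on low counts (1.78, adjusted p = 0.0034). Against pECDCs it was 1.13 ± 0.68 (adjusted p = 0.23), and 1.63 without treated replicate 2 (adjusted p = 7.1e-05). Ccl20, a ligand of Ccr6, had 4 to 6 counts in treated libraries and at most 2 elsewhere.

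Receptor genes were low or silent, and 12 of the 20 never exceeded 3 counts in a library. Cxcr4, the signaling receptor of Cxcl12, had 0 counts in 8 libraries and 2 in iECDC replicate 3. Cxcr2, through which Cxcl5 and Cxcl1 act, had at most 1. Ccr2, Ccr4, Ccr6, Ccr8, Cxcr1 and Cxcr3 had 0 in all libraries. Of the receptors with more than 10 counts in all, Ccr10, Cxcr6 and Ccr9 overlap other genes, and Ccr7 had at most 4 per library. Ccr1 was the only signaling receptor among the 20 genes that was tested in the main comparisons. Ccr1, which binds Ccl5, Ccl7 and Ccl9 and was singled out after its values were seen, had 31, 22 and 29 counts in pECDCs, 40, 14 and 13 in iECDCs, and 2, 28 and 1 in treated libraries. Treated replicates 1 and 3 were below all other libraries and replicate 2 was level with them. No comparison of Ccr1 was called (adjusted p = 0.285 to 0.94), and without treated replicate 2 it was called lower than in iECDCs (-3.78, adjusted p = 0.0026) and than in pECDCs (-3.74, adjusted p = 1.0e-05).

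Among atypical receptors, Ackr3 (ENSMUSG00000044337), which removes Cxcl12 from the surroundings of a cell, was the receptor gene with the highest mean FPKM of any group (0.523 in pECDCs). Its counts were 45, 28 and 47 in pECDCs, 6, 3 and 4 in iECDCs, and 7, 13 and 4 in treated libraries. pECDCs were above all other libraries, while the other groups overlapped. Ackr3 fell in iECDCs by 2.80 ± 0.33 (log2, adjusted p = 0.00066) and in treated libraries fell by 2.04 ± 0.36 against pECDCs (adjusted p = 0.0057). Per total count pECDCs held 7.45 times as much as iECDCs (95% exact interval 4.19 to 14.4, counting error only). Ackr1, Ackr2 and Ackr4 did not exceed 8 counts in any library, and Ackr1 shares its strand and bases with Cadm3.

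Genes that act around chemokines were read from lists. Of 10 further genes of the chemokine system, Mif, a cytokine that can bind Cxcr4 and Cxcr2, was abundant, with an FPKM of 578 to 782, and was called in no comparison (adjusted p = 0.24 to 0.44). Ccrl2, a non-signaling receptor that presents chemerin, rose in treated libraries against iECDCs (2.89, adjusted p = 0.0084) and pECDCs (2.43, adjusted p = 0.0094), and Xcr1, the receptor of Xcl1, was lower in iECDCs than in pECDCs (-1.63, adjusted p = 0.022) and in treated libraries than in pECDCs (-2.08, adjusted p = 0.020). Both genes were scarce. Ccrl2 had 29, 15 and 37 counts in treated libraries and at most 7 elsewhere. Xcr1 had 34, 17 and 38 in pECDCs and at most 12 elsewhere. Of 7 proteases that cleave or release chemokines, Dpp4, which trims the start of Cxcl12, was higher in treated libraries than in iECDCs (4.60, adjusted p = 0.0020) and pECDCs (3.37, adjusted p = 0.0071). Its FPKM was 1.49, 0.436 and 1.66 in treated libraries and at most 0.169 elsewhere. Mmp2, a gelatinase, also rose (0.77, adjusted p = 0.023, and 0.68, adjusted p = 0.035). Adam10 and Adam17, sheddases that release Cx3cl1 and Cxcl16 from the membrane, were lower in iECDCs than in pECDCs by small amounts (-0.22, adjusted p = 0.030, and -0.26, adjusted p = 0.041).

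Of 24 genes that pass on or end chemokine receptor signals, 16 were tested in each comparison. In iECDCs against pECDCs 4 were higher and 3 lower, in treated libraries against iECDCs 3 and 3, and against pECDCs 4 and 2. Higher and lower shares were 25% and 18.8%, 18.8% and 18.8%, and 25% and 12.5%. Those of all genes were 7.21% and 9.21%, 16.0% and 14.0%, and 17.9% and 17.0%. The shares in the treated comparisons were thus near those of all genes, and those in iECDCs against pECDCs were above them. Arrb1, β-arrestin, rose in treated libraries against iECDCs (0.90, adjusted p = 0.0011) and Grk5, a receptor kinase, fell by 1.10 (adjusted p = 0.00062). Rgs16, which ends G protein signals, rose in iECDCs (1.28, adjusted p = 0.0030) and fell by 1.67 in treated libraries against iECDCs (adjusted p = 0.0028). Rac2, Vav1, Dock2, Rgs1 and Pik3cg, which are characteristic of leukocytes, did not exceed an FPKM of 0.017. Not all genes of this kind on the list were silent. Pik3r5 had an FPKM of 1.846 to 4.305 and Elmo1 of 0.134 to 1.124, both highest in treated replicate 1. The median log2 fold change of the tested genes was 0.18, -0.07 and 0.08 in the 3 comparisons.

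Of 28 genes of NF-κB and its inflammatory inputs, 25, 24 and 25 were tested in the 3 comparisons. In iECDCs against pECDCs 1 was higher (4%, against 7.21% of all genes) and 2 were lower (8%, against 9.21%). In treated libraries 8 were higher and 4 lower than in iECDCs, and 10 higher and 5 lower than in pECDCs, with medians of 0.26 and 0.28 and with the shares of all genes as given above (16.0% and 14.0%, and 17.9% and 17.0%). Genes called higher against both included Nfkbia, the inhibitor that NF-κB itself induces (0.90, adjusted p = 0.0085, and 1.12, adjusted p = 0.0045), the receptors Tnfrsf1a (0.74 and 0.61, adjusted p = 0.0032 and 0.0018) and Il1r1 (1.24 and 0.41, adjusted p = 0.00091 and 0.0036), and the subunit Relb (0.73 and 0.90, adjusted p = 0.030 and 0.014). Genes called lower against both included the kinase subunits Chuk (-0.68 and -0.57) and Ikbkg (-0.65 and -0.59) and the cytokine Il6 (-1.04 and -1.61). The FPKM of Nfkbia was 10.4 to 14.6 in untreated libraries and 29.3, 19.0 and 28.7 in treated ones, with replicate 2 the lowest of the treated. Tnfaip3, of the same list, went the other way against iECDCs. Its FPKM was 5.28, 5.73 and 3.93 in iECDCs and 2.34, 2.78 and 2.27 in treated libraries. Treated libraries and pECDCs (2.68 to 3.11) overlapped for Tnfaip3. Tnf had 0 in all libraries and Il1b did not exceed 0.025. 

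Markers of cell types moved in the same comparisons as the chemokine genes. Of all tested genes, 7.21% were called higher and 9.21% lower in iECDCs against pECDCs. These shares were 16.0% and 14.0% in treated libraries against iECDCs, and 17.9% and 17.0% against pECDCs. In iECDCs against pECDCs, 4 of 7 mesenchymal markers were lower (Col1a1, Dcn, Pdgfra and Pdgfrb) and 1 higher (Vim), and of 8 epicardial and mesothelial markers 3 were tested and Krt19 was higher (0.64, adjusted p = 0.00037). In treated libraries Dcn, Pdgfra and Pdgfrb were higher than in either other group, and Vim was lower than in iECDCs. Of the 5 epicardial markers tested there, Tcf21, Upk3b and Wt1 were higher than in iECDCs, and these and Tbx18 were higher than in pECDCs. Wt1 stayed low in treated libraries, with an FPKM of 0.396, 0.107 and 0.348. Upk3b and Tcf21 did not exceed 1.36 and 1.58 there. Of the 13 leukocyte markers 3 were tested. Lyz2, lysozyme of myeloid cells, rose in iECDCs against pECDCs (2.55, adjusted p = 9.4e-05), fell by 0.95 in treated libraries against iECDCs (adjusted p = 0.028) and was 1.61 above pECDCs there (adjusted p = 0.0057). Cd14, a receptor for bacterial lipopolysaccharide, was 0.80 above iECDCs (adjusted p = 0.015) and 0.81 above pECDCs (adjusted p = 0.0026) in treated libraries, and Csf1r was called in no comparison. Their part in the chemokine values was not tested.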

How the data were processed

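RNA of 3 pECDC, 3 iECDC and 3 SB431542-treated libraries was sequenced and grouped by the labels. The authors deposited raw read counts for each gene and FPKM values, which follow from the count, the gene length and a constant of each library for all but 1 value. The submitters' processing notes name TopHat2 2.0.9, Bowtie2 2.0.6 and mm9, but the table's coordinates were those of GENCODE M21 on GRCm38 for 53585 of 54532 genes (all 63 chemokine genes), and coordinates are given on that build. The counting program and its strand setting are not given in the sources used here. The deposited fold changes and p-values of the authors' own comparisons were not used.

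Differences were tested on the counts with edgeR 4.0.16 under R 4.3.3: TMM scaling, filterByExpr (minimum count 10, minimum total 15), the quasi-likelihood test with only the compared libraries in the fit, and Benjamini-Hochberg adjustment over all tested genes. The test was run on simulated counts with the same dispersion for every gene and no library that stood apart. That check does not cover the libraries that stood apart here. Common biological coefficients of variation were 0.0919 (iECDCs against pECDCs), 0.171 (treated against iECDCs) and 0.144 (treated against pECDCs). Alternatives were DESeq2 1.42.0, limma 3.58.1 on log2(FPKM + 1) and log2(FPKM + 0.1), other scalings and filters, a fit of all 9 libraries, a replicate block, and leaving out libraries. Figures used Python 3.11.15 and matplotlib 3.10.9.

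The genes and the lists were chosen with earlier results of these data known. Values in every library are given for members called in at least 1 comparison or with a mean FPKM of at least 1 in a group, and other members are given by counts, except where marked as chosen after seeing values. One gene of the check of the treatment is not reported here. Excluded names were Cxcl11, a polymorphic pseudogene in the annotation, and 2 Ccl19 pseudogenes. The symbols of 27 genes that had been turned into dates were restored from identifiers.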

Additional observations from a re-analysis of the deposited data

How the results depend on the processing

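Of 452 recomputed differences of the 11 genes described in full, 408 kept their direction and their side of the threshold, 22 lost the call, 19 gained it and 3 changed sign. The 3 that changed sign were uncalled and near 0: with single libraries left out, Ccl2 ranged from -0.0030 to 0.75 and Ccl7 from -0.0296 to 0.80 in treated libraries against pECDCs, each lowest without treated replicate 3, and Cxcl16 ranged from -0.20 to 0.0104 in iECDCs against pECDCs, highest without pECDC replicate 3. The number of chemokine genes called in iECDCs against pECDCs (4 higher, 2 lower) became 2 and 1 with at least 10 counts in every library, 6 and 6 with no filter and 3 and 1 with all 9 libraries in the fit, and ranged from 3 to 5 higher and 1 to 4 lower when single libraries were left out. In treated libraries against iECDCs (3 higher, 3 lower), the numbers were 6 and 3 with DESeq2, 9 and 3 with no filter, 5 and 3 with all 9 libraries and 10 and 4 without both libraries that stood apart, with 2 to 9 higher and 2 to 4 lower when single libraries were left out. Against pECDCs (4 higher, 3 lower), they were 7 and 3 with DESeq2 and with no filter and 2 and 2 with at least 10 counts in every library, with 2 to 11 higher and 3 to 4 lower when single libraries were left out. Fewer genes are tested under the stricter filter and fewer libraries enter the leave-out fits; otherwise the cause was not tested. RLE and upper-quartile scaling and limma with either pseudocount gave the same numbers of chemokine calls. Counts over all genes moved by more than 1.5 times as well, so these shifts are not read as particular to chemokine genes. In treated libraries against iECDCs, 16.0% of all genes were called higher and 14.0% lower. Without both libraries that stood apart the shares were 32.6% and 31.9%. Those called higher ranged from 208 (all 9 libraries) to 2180 (without iECDC replicate 3) in iECDCs against pECDCs, from 984 to 4526 in treated libraries against iECDCs, and from 1240 to 4552 against pECDCs. Those called lower ranged from 463 to 2287, from 707 to 4425 and from 1213 to 4636. The replicate numbers of the labels did not pair the libraries (correlation of deviations between same-numbered libraries -0.225 to 0.049), and with the replicate block 4 chemokine genes were higher and 2 lower in iECDCs, 3 and 3 in treated libraries against iECDCs, and 4 and 3 against pECDCs, as without it. Genes that stayed at or under 3 counts throughout cannot be compared at this depth.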
